A study of Mus musculus with 27 samples.

Results

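The 34 genes described here encode proteins of mitosis and of the G2/M transition, and were taken by symbol from a fixed list that includes Mki67, the gene of the Ki67 proliferation antigen. All 34 had a row among the 19615 probe targets of the deposited table. All 34 also lay above background, that is, their mean log2 signal was over percentile 95 of 1125 odorant, vomeronasal, taste and trace amine receptor targets, as was that of 10799 targets in all. Their mean signal was 1.72 times the background level for Cenpf, 1.82 times for Ttk and 25.1 times for Mki67, with the other genes in between.

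The readings came from liver metastases grown in C57BL/6 mice of 2 months that had received MC38 cells, from a colon carcinoma of the mouse, through the portal vein and were killed 11 days later. In the GeoMx assay, tagged probes are hybridized to a tissue section, and light frees the tags of a chosen area for sequencing. The 14 control regions were from tumours of cells that carried a nontargeting shRNA, and the 13 others from tumours labelled CMTM6 knockdown, whose cells carried an shRNA against CMTM6, a membrane protein that keeps PD-L1 from being degraded. Each region was the segment labelled Remainder of an area picked after staining for pan-cytokeratin and desmin, and metastases of 3 mice per group were used. The study took such readings as those of MC38 cells, and what Remainder leaves out is not in the labels. Which mouse a region came from is not in the labels. Since there were more regions than mice, some came from the same animal, so every p-value here is too small and every interval too narrow.

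Signal came in whole steps in nearly every reading, and the totals per region ran from 4223034 to 26328208 steps. The authors had normalized each label to its own upper quartile, which was 1.46-fold higher in the control regions. Every region was therefore set to the same median over all targets, 237 signal units, which is called the common scale, and differences on it are relative to the other genes. Of 11 keratin and epithelial markers only Krt8 lay above background, with a median of 259 in control and 250 in knockdown-labelled regions. The Cmtm6 probe differed by -0.06 on the log2 scale between the labels (SE 0.07; limma adjusted p = 0.631), and the term knockdown-labelled is used for those regions for this reason. In such mixed segments, fewer dividing cells and less of a transcript per cell cannot be told apart.

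In a dividing cell, cyclin A2 and the B cyclins switch on the kinase Cdk1, which starts mitosis once the phosphatase Cdc25c has removed its inhibitory phosphates. Kinesins and their partners then build the spindle, kinetochores hold the chromosomes to it, and the checkpoint proteins keep Cdc20 from the anaphase promoting complex until every chromosome is attached. That complex, with the ubiquitin-conjugating enzyme Ube2c, then marks cyclin B for destruction, and Prc1, Kif23, Anln and Ect2 carry out cytokinesis. Most of these transcripts accumulate late in the cell cycle, and in tumour tissue they are commonly read as a mark of proliferating cells.

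The genes varied together from region to region, under both labels. The mean log2 level over the 34 genes ran from 9.81 to 10.48 in control regions, with a median of 10.07, and from 9.61 to 10.50 in knockdown-labelled regions, with a median of 10.10. These ranges are a 1.59-fold and a 1.86-fold span. All 34 genes were above their label mean in control regions 2, 11, 12 and 14 and in knockdown-labelled regions 5 and 6, and 33 were in knockdown-labelled regions 7 and 12. None was above it in control regions 6 and 7 or in knockdown-labelled regions 1 and 8, and only 1 was in control region 13.

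**Figure D1:**
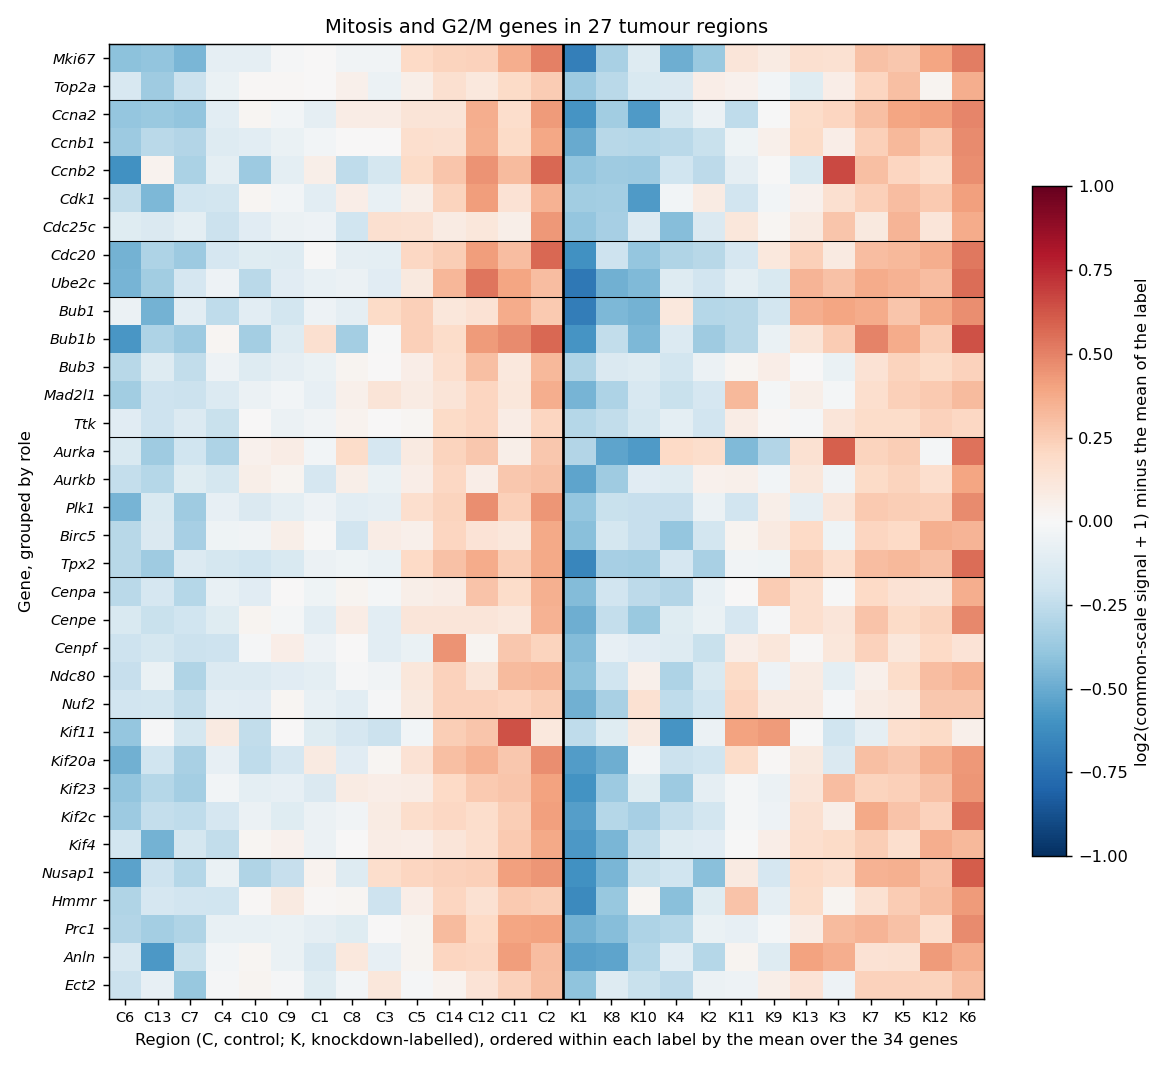
Colour gives log2(common-scale signal + 1) minus the mean of the label, for 34 genes grouped by role (rows) in 14 control and 13 knockdown-labelled regions (columns, ordered within each label by the mean over the genes). Most rows change colour in the same order of regions, from control region 6 to control region 2 and from knockdown-labelled region 1 to region 6, while Kif11 and Aurka depart from it.

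After removal of the label mean, the median Pearson r over the 561 pairs of genes was 0.84 across the 27 regions, beside 0.22 over pairs of all targets above background. Of the pairs, 536 had an r over 0.5 and 1 was negative. These correlations describe regions that share mice, sections and scaling, and no p-value is given for them. A first principal component took 81.9% of the variance of the 34 genes, beside 36.1% for all targets above background.

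Part of the shared movement went with the background reading of the region. The mean over the genes had an r of -0.88 with the log2 level of the background receptors and of 0.07 with the log2 total in steps. For this reason a second set of values is given beside the first, in which the mean background of a region was subtracted before all regions were set to the same upper quartile; it was chosen after the data were seen. On that scale the median r over pairs was 0.65, beside 0.0024 over pairs of all targets, 436 pairs were over 0.5 and 7 were negative. The first component took 64.8% of the variance, beside 17.3% for all targets. The r of the mean with the background level was still -0.77 there, and with the log2 background level removed by regression from the common scale the median r over pairs was 0.58, beside 0.08. What part the background level had in the co-variation was not tested.

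The co-variation had about the same size under either label. The median r over pairs was 0.84 in the control regions alone and 0.85 in the knockdown-labelled regions alone, and 0.69 and 0.66 with background subtracted. Knockdown-labelled regions 1 and 6 stood farthest from the median of the gene mean. Without them the median r was 0.79, and 0.61 with background subtracted.

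The genes closest to the rest were Ccnb1 (cyclin B1), Kif2c (a kinesin that takes apart microtubule ends at the centromere), Cdc20 and Tpx2 (which binds and activates Aurora A on the spindle), with r values of 0.98, 0.98, 0.97 and 0.97 with the mean of the other 33 genes. With background subtracted these were 0.95, 0.95, 0.93 and 0.93. The closest single pair was Ccnb1 with Cdc20, with an r of 0.98 on the common scale and 0.96 with background subtracted.

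Ccnb1 (ENSMUSG00000041431.16, chr13:100778650-100786570, minus strand, GRCm38) read 1627 to 2741 in control regions, with a median of 2078, and 1468 to 2901 in knockdown-labelled regions, with a median of 2164. Kif2c (ENSMUSG00000028678.13, chr4:117159639-117182639, minus strand) read 699 to 1197 in control regions, with a median of 871, and 584 to 1249 in knockdown-labelled regions, with a median of 845. The ranges of the labels overlapped nearly throughout, and both genes were lowest in knockdown-labelled region 1 and highest in knockdown-labelled region 6. Cdc20 (ENSMUSG00000006398.15, chr4:118432901-118437352, minus strand) read 1592 to 3279 in control regions, with a median of 2068, and 1478 to 3242 in knockdown-labelled regions, with a median of 2394. Tpx2 read 1192 to 1985 in control regions, with a median of 1461, and 962 to 2231 in knockdown-labelled regions, with a median of 1483. Cdc20 peaked in control region 2 and Tpx2 in knockdown-labelled region 6, and both were lowest in knockdown-labelled region 1.

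Because these genes moved together, their promoter windows are shown, from RefSeq on GRCm38.p6, each from 250 bases before to 50 bases after a transcription start. A window was found for 29 of the 34 genes, and none for Ccna2, Tpx2, Cdc25c, Kif20a and Aurkb. Capitals mark the letters CCAAT or TTTGAA on either strand (ATTGG and TTCAAA are their reverse complements). CCAAT is the core of the box bound by NF-Y, and TTTGAA is a form of the cell cycle homology region, an element known from promoters of late cell cycle genes. The windows are chr13:100786437-100786736 for Ccnb1, chr4:117178723-117179022 for Kif2c, chr4:118437294-118437593 for Cdc20 and chr7:135716330-135716629 for Mki67, all on the minus strand.
Ccnb1: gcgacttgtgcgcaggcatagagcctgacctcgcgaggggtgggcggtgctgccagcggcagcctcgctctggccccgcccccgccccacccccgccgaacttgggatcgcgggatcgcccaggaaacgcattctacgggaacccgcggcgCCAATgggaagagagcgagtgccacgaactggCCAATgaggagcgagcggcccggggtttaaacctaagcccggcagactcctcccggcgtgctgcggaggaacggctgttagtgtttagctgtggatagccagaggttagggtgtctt
Kif2c: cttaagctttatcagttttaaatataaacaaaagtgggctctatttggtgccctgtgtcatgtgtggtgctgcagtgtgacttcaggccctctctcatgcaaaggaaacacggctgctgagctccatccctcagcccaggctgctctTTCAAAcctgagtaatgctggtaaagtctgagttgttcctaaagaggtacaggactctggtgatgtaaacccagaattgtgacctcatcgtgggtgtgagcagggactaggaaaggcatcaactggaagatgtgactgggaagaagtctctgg
Cdc20: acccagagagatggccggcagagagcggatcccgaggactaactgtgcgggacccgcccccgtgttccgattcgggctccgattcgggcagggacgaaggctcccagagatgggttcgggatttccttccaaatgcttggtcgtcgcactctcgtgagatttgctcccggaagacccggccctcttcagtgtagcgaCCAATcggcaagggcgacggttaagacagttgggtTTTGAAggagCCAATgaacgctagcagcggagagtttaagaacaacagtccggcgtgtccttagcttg
Mki67: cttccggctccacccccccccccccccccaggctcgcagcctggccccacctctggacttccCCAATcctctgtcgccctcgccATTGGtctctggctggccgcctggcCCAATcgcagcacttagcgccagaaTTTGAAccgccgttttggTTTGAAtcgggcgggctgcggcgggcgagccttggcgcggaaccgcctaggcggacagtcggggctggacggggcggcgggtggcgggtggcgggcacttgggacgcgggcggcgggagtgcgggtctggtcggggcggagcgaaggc

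Counted from the start, the Ccnb1 window held CCAAT at -99 and -67 and no TTTGAA, and the Cdc20 window held CCAAT at -53 and -8 and TTTGAA at -18. The 2 motifs share no base in these windows. The Mki67 window held 3 CCAAT and 2 TTTGAA matches, and the Kif2c window 1 TTTGAA match, at a RefSeq start that lies 3867 bases inside the annotated gene. Over the 32 windows of the set, 78.1% held CCAAT, 78.1% held TTTGAA and 68.8% held both. Over all 32851 windows of the table these shares were 37.4%, 17.9% and 6.95%. Among 91 windows of other mitosis genes, CCAAT was in 65.9%, TTTGAA in 44.0% and both in 30.8%. Among 38 windows of replication and G1/S genes these shares were 60.5%, 13.2% and 10.5%, so the lists stood closer to each other in CCAAT than in TTTGAA. A match of letters is a description of the window and does not show a bound site. Other forms of the cell cycle homology region were not searched for, so a window without TTTGAA may hold one.

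Mki67 (ENSMUSG00000031004.8, chr7:135689784-135716361, minus strand), which marks cycling cells, read 2465 to 4805 in control regions, with a median of 3328, and 2069 to 4751 in knockdown-labelled regions, with a median of 3607. Its highest reading was in control region 2 and its lowest in knockdown-labelled region 1, and the ranges of the labels overlapped nearly throughout. Its r with the other genes was 0.96, and 0.91 with background subtracted, and it was on the same side of its label mean as the others in 24 of 27 regions. Top2a (ENSMUSG00000020914.17, chr11:98992943-99024189, minus strand), the topoisomerase that untangles sister chromatids, moved less. It read 1479 to 2257 in control regions, with a median of 1903, and 1397 to 2317 in knockdown-labelled regions, with a median of 1831. Its SD within a label was 0.19 on the log2 scale against 0.33 for Mki67, and its r went from 0.89 to 0.61 with background subtracted.

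**Figure D2:**
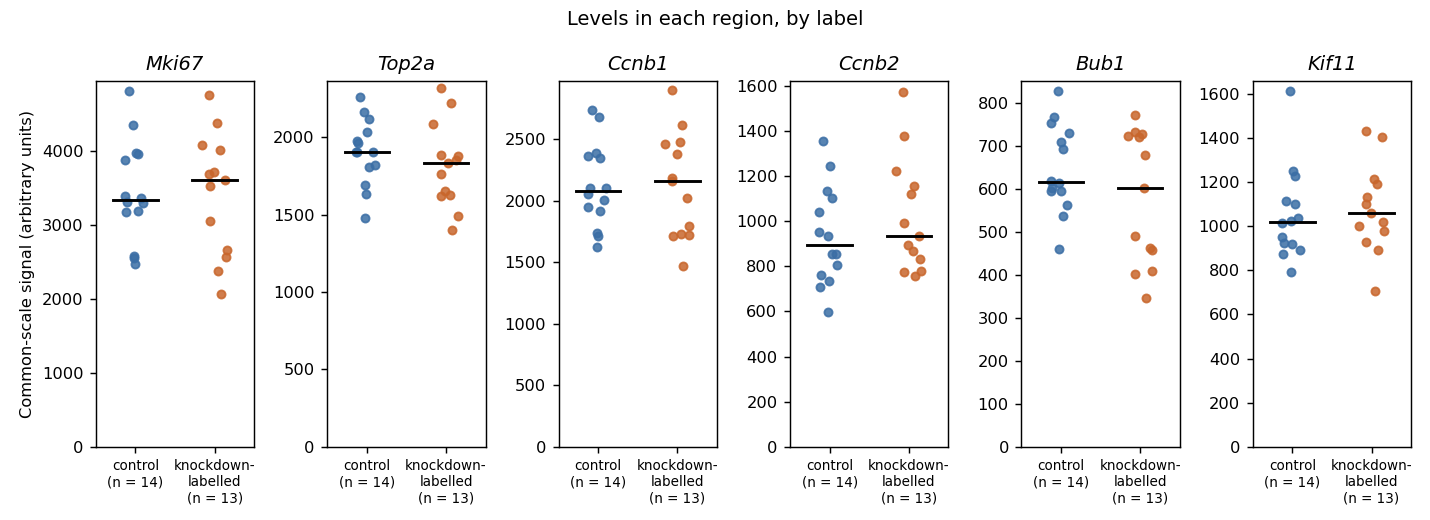
Common-scale signal (vertical axis from 0, arbitrary units) of 6 genes in each control (n = 14) and knockdown-labelled (n = 13) region, with bars at the medians. The labels overlap for every gene shown, and Ccnb2 has its highest reading, 1574, in 1 knockdown-labelled region.

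The genes differed more between regions of a label than most targets did on the common scale. The median SD within a label was 0.26 on the log2 scale, beside 0.17 over all targets above background, and 33 of the 34 genes were over the latter. With background subtracted the medians were 0.22 and 0.20, and 23 of the 34 were over it. With the log2 background level regressed out of the common scale they were 0.149 and 0.136. The spread of the set thus stood apart less from that of other targets once background was taken into account in either way.

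Bub1b, Ube2c, Ccnb2 and Nusap1 had the widest spread on the common scale, with an SD of 0.37, 0.35, 0.34 and 0.33. Bub1b, the checkpoint kinase BubR1, read 1011 to 2247 in control regions, with a median of 1519, and 1024 to 2396 in knockdown-labelled regions, with a median of 1474. Ube2c read 1412 to 2833 in control regions, with a median of 1864, and 1239 to 3005 in knockdown-labelled regions, with a median of 1904. Both were highest in knockdown-labelled region 6, and the labels overlapped. Nusap1, which bundles spindle microtubules, read 537 to 1058 in control regions, with a median of 772, and 529 to 1227 in knockdown-labelled regions, with a median of 857. It too was highest in knockdown-labelled region 6 and lowest in region 1.

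Ccnb2 (cyclin B2; ENSMUSG00000032218.7, chr9:70407692-70421547, minus strand) read 599 to 1356 in control regions, with a median of 895, and 756 to 1574 in knockdown-labelled regions, with a median of 933. Unlike the genes above, it was highest in knockdown-labelled region 3, where the mean over the genes was only 0.14 above its label mean on the log2 scale. Its lowest reading was in control region 6.

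Ttk, Bub3 and Top2a had the narrowest spread, with an SD of 0.16, 0.17 and 0.19. Ttk, the checkpoint kinase Mps1, read 215 to 292 in control regions, with a median of 252, and 202 to 288 in knockdown-labelled regions, with a median of 248. That is close to the background level, and with background subtracted its SD was 0.33. Bub3, which brings Bub1 and Bub1b to kinetochores, read 1337 to 2021 in control regions, with a median of 1593, and 1400 to 2019 in knockdown-labelled regions, with a median of 1727. It lay well above background, and its SD was also narrow with background subtracted, at 0.11.

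By role, the means of the 8 groups of genes each had an r between 0.96 and 0.98 with the mean of the genes outside the group, and between 0.89 and 0.96 with background subtracted. The median r was 0.82 over 62 pairs of genes with the same role and 0.84 over 499 pairs with different roles. Shared role thus did not go with closer co-variation within the set. The other cyclin and Cdk1 genes had r values of 0.94 for Ccna2, 0.88 for Cdk1 and 0.86 for Cdc25c with the rest. Of the other mitotic kinases and partners, Plk1 had 0.93, Aurkb 0.91 and Birc5 (survivin, its partner in the chromosomal passenger complex) 0.91. The centromere and kinetochore genes Cenpa, Cenpe, Ndc80 and Nuf2 had between 0.86 and 0.93. The kinesins Kif23, Kif4 and Kif20a had 0.96, 0.93 and 0.92, and of the cytokinesis and spindle bundling genes Prc1 had 0.96, Ect2 0.90, Anln 0.88 and Hmmr 0.88. The remaining checkpoint gene, Mad2l1, had 0.91.

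**Figure D3:**
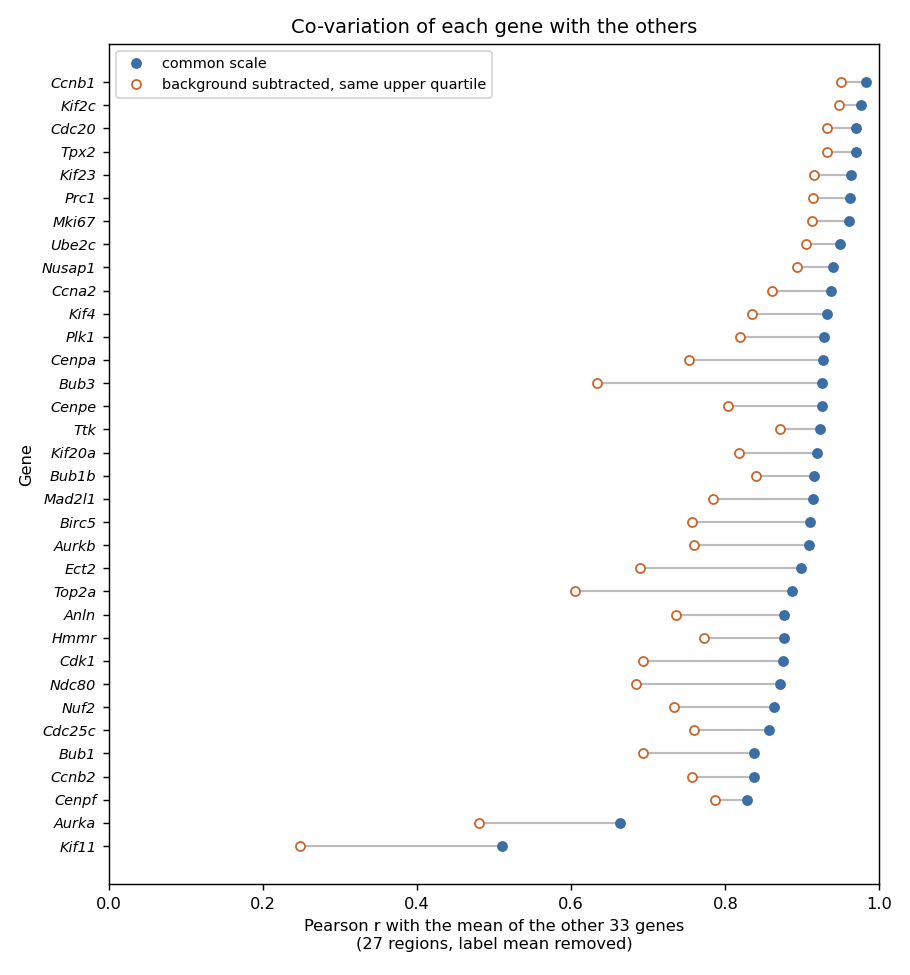
Pearson r of each of the 34 genes with the mean of the other 33 across 27 regions, label mean removed, on the common scale (filled) and with background subtracted and the same upper quartile (open). Ccnb1 is at the top with 0.98 and 0.95, and Kif11 at the bottom with 0.51 and 0.25.

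On the common scale Kif11, Aurka and Cenpf followed the others least, with r values of 0.51, 0.66 and 0.83. With background subtracted Kif11 and Aurka were again lowest, at 0.25 and 0.48, but Top2a, Bub3, Ndc80, Ect2, Bub1 and Cdk1 came next, from 0.61 to 0.69, and Cenpf was at 0.79. Kif11 (ENSMUSG00000012443.4, chr19:37376403-37421859, plus strand), the kinesin that pushes the spindle poles apart, read 791 to 1614 in control regions, with a median of 1020, and 706 to 1432 in knockdown-labelled regions, with a median of 1059. It was highest in control region 11 and lowest in knockdown-labelled region 4. Aurka (ENSMUSG00000027496.15, chr2:172356190-172370535, minus strand), the Aurora A kinase of the spindle poles, read 336 to 519 in control regions, with a median of 447, and 270 to 605 in knockdown-labelled regions, with a median of 444. It was highest in knockdown-labelled region 3 and lowest in region 10. Cenpf, a kinetochore protein whose probe was near background, read 202 to 322 in control regions, with a median of 230, and 171 to 273 in knockdown-labelled regions, with a median of 243. The pair Kif11 and Aurka had the only negative r, -0.08, and -0.42 with background subtracted.

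After these values were seen, the position of the genes was compared with their nearest targets. Of the 20 targets closest to Kif11 in r with background subtracted, 18 lie on chromosome 19, as Kif11 does, while that chromosome holds 3.61% of the targets compared. They include Ndufs8, a subunit of respiratory complex I, with an r of 0.94, and the mitotic kinesin gene Kif20b, with 0.94. Of the 20 closest to Bub1, 18 lie on its own chromosome 2, which holds 8.06% of the targets, as do 15 of the 20 closest to Bub1b and to Tpx2. For Nusap1 and Ube2c, also on chromosome 2, these counts were 14 and 13, but for Aurka on the same chromosome only 3. For Ccnb1 none of the 20 lies on its chromosome 13.

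The chromosome 19 mean was taken over its targets outside the set, relative to all targets above background outside the set and to the label mean. It ran from -0.19 in knockdown-labelled region 6 to 0.23 in knockdown-labelled region 11 on the log2 scale. The deviation of Kif11 from the mean of the other 33 genes had the same sign as that chromosome mean in 26 of 27 regions, and an r of 0.90 with it. When the chromosome mean was removed by regression both from Kif11 and from the mean of the other genes, their r went from 0.25 to 0.79. When each gene had its chromosome mean subtracted instead, the r of Kif11 was 0.62 and the median r over all pairs was 0.69. For Aurka the r with the others went the other way, from 0.48 to 0.28. It also fell for other chromosome 2 genes, from 0.93 to 0.82 for Tpx2 and from 0.69 to 0.59 for Bub1. Ube2c, Nusap1 and Bub1b moved from 0.91 to 0.87, from 0.89 to 0.87 and from 0.84 to 0.83.

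Chromosome 2 carries 6 of the genes, Ube2c, Bub1, Bub1b, Aurka, Tpx2 and Nusap1, and its relative mean ran from -0.21 in knockdown-labelled region 9 to 0.17 in knockdown-labelled region 6. In knockdown-labelled regions 1, 2, 8, 9, 10 and 11 it was below 0, and these were also the 6 knockdown-labelled regions with the lowest Bub1. The mean of the 28 genes that lie elsewhere had an r of 0.52 with it, and over the 15 chromosomes with a gene of the set such values ran from -0.67 to 0.59. Pairs of genes both on chromosome 2 had a median r of 0.78 over 15 pairs with background subtracted, beside 0.65 over 378 pairs with neither on it.

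For a few regions a single chromosome stood apart. The chromosome 9 mean was 0.35 in knockdown-labelled region 3 and between -0.06 and 0.02 in the other 26 regions. Ccnb2, on that chromosome, was 0.58 above the mean of the other genes there and Kif23 was 0.17 above it, each the highest of the 27 regions, with Anln second at 0.21 and Ttk at 0.17. The chromosome 3 mean was -0.32 and -0.30 in knockdown-labelled regions 10 and 11 and between -0.04 and 0.09 elsewhere. Ccna2, on that chromosome, was at -0.31 and -0.27 there, the lowest 2 of the 27 regions, and Cenpe at -0.13 and -0.19, while Ect2 was at 0.04 and -0.06. Genes of other chromosomes departed as far in these regions. In regions 10 and 11 Cdk1, on chromosome 10, was at -0.33 and -0.21. Aurka, on chromosome 2, was at -0.75 and -0.76 there, while Nuf2, on chromosome 1, was at 0.51 and 0.30. In knockdown-labelled region 3 Aurka was at 0.72, farther from the other genes than Ccnb2. These are readings of RNA probes, and what sets the chromosome means was not tested.

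**Figure D4:**
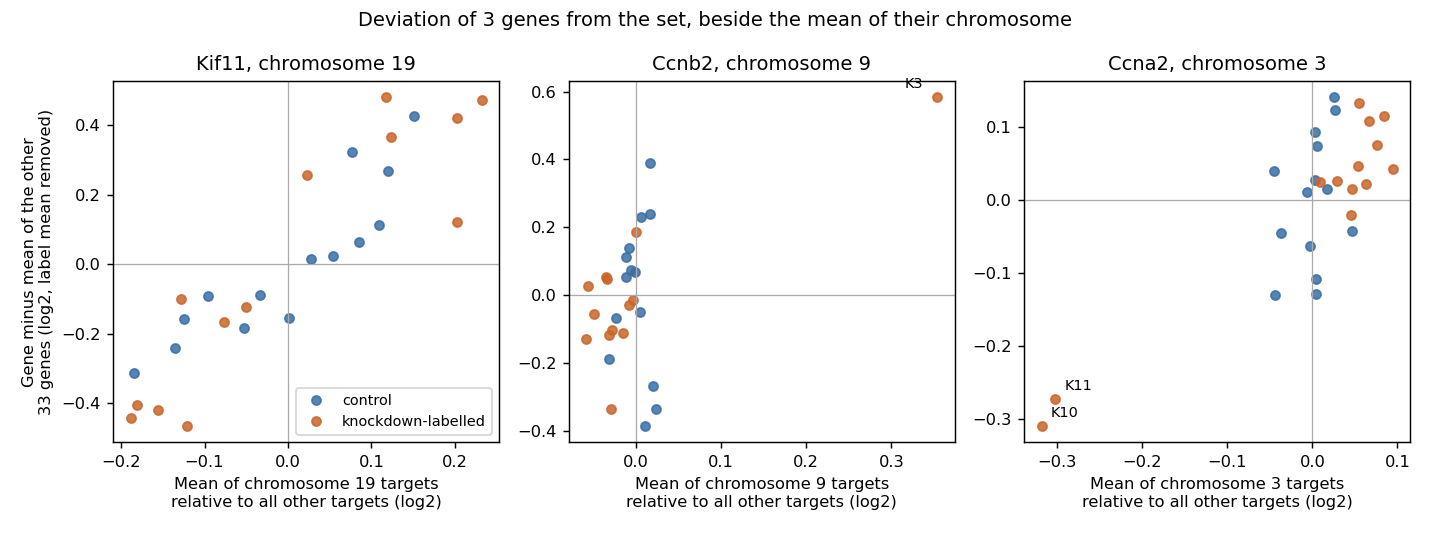
Each point is a region (blue, control; orange, knockdown-labelled). The horizontal axis is the log2 mean of the targets of the gene's chromosome relative to all targets above background outside the set. The vertical axis is the gene minus the mean of the other 33 genes (log2, background subtracted, label mean removed). Kif11 follows chromosome 19 with an r of 0.90, while for Ccnb2 and Ccna2 single regions stand apart, with 0.35 for chromosome 9 in region K3 and -0.32 and -0.30 for chromosome 3 in regions K10 and K11.

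The study asked whether CMTM6 acts on the growth of the tumour cells, so the genes were also compared between the labels. On the common scale 0 of the 34 genes passed the test in limma over all targets (Benjamini-Hochberg adjusted p under 0.05), and 0 had an unadjusted p under 0.05. Over all 19615 targets 20.8% had an unadjusted p under 0.05 and 3.89% passed, 256 higher and 507 lower, a count that ran from 348 (without knockdown-labelled region 8) to 1442 (without control region 13) as each region was left out. Of the 34 differences 13 were positive and 21 negative, with a median of -0.02 beside -0.04 over all targets. That split depended on the setting. It was 21 to 13 at the same upper quartile, 25 to 9 at the same total and 32 to 2 with housekeeping scaling. With the log2 background level as a covariate it was 4 to 30. The medians with housekeeping scaling and with that covariate were 0.12 and -0.07, beside 0.10 and -0.04 over all targets.

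Bub1 had the largest difference toward lower and Ccnb2 the largest toward higher readings. Bub1 (ENSMUSG00000027379.13, chr2:127801122-127831865, minus strand) encodes a checkpoint kinase of the kinetochore. It read 462 to 828 in control regions, with a median of 617, and 345 to 773 in knockdown-labelled regions, with a median of 603. Its log2 difference was -0.20 (SE 0.12, 95% interval -0.44 to 0.05; limma adjusted p = 0.367), with 4 knockdown-labelled readings under the lowest control reading and the rest inside the control range. Ccnb2 had a log2 difference of 0.13 (SE 0.12, 95% interval -0.13 to 0.38; limma adjusted p = 0.602). Mki67 differed by -0.03 (SE 0.12, 95% interval -0.27 to 0.21; limma adjusted p = 0.932), and its sign depended on the scaling, being positive at the same upper quartile or the same total. Other differences were -0.15 for Prc1, which bundles microtubules of the central spindle, and -0.12 for the kinetochore motor Cenpe, with limma adjusted p = 0.386 and 0.433.

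**Figure D5:**
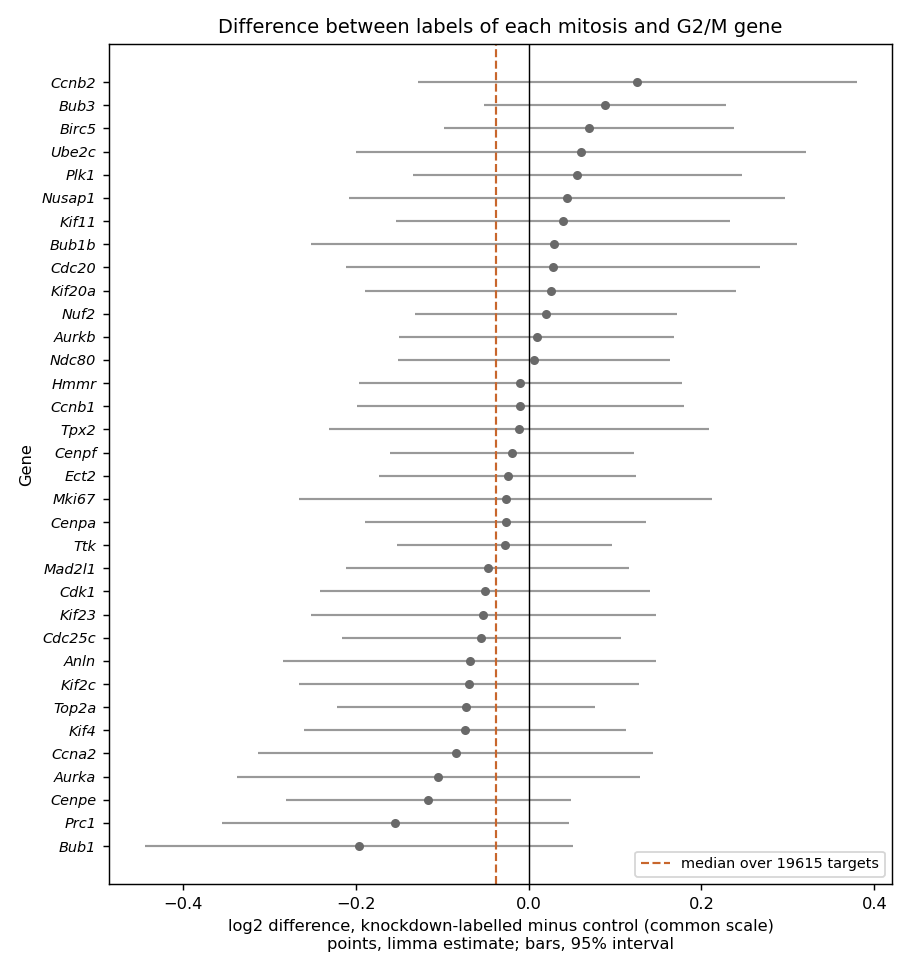
Points are limma estimates of the log2 difference, knockdown-labelled minus control, for each of the 34 genes on the common scale, with 95% intervals as bars, and the dashed line is the median over 19615 targets. Every interval includes 0, and the estimates run from -0.20 for Bub1 to 0.13 for Ccnb2.

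As deposited, with each label on its own upper quartile, 34 of 34 genes were lower in the knockdown-labelled regions, as were 98.0% of all targets, whose median difference was -0.54 on that scale. With background subtracted and the same upper quartile, Bub3 passed the test, at 0.15 (SE 0.04; limma adjusted p = 0.0104), where 20.6% of all targets did. Bub3 was also the 1 gene higher with quantile normalization, where 5.12% of all targets passed, and Bub3 and Birc5 were higher with scaling to housekeeping genes, where 7.48% passed. On the common scale 3 of the 14 housekeeping genes themselves passed as lower in knockdown-labelled regions in limma. Of the 14 differences 12 were negative, with a median of -0.08, so scaling to these genes raises the other differences. With the log2 background level as a covariate, Bub1, Prc1, Cenpe and Ccna2 were lower, at -0.28, -0.22, -0.17 and -0.17, with limma adjusted p = 0.00523, 0.00617, 0.0113 and 0.0276, where 13.7% of all targets were lower. Each region left out in turn gave 0 of 34 on the common scale. Beside these values, 6 of 17 hepatocyte genes and 6 of 19 genes of T or NK cells passed as higher in knockdown-labelled regions in limma, and 8 of 18 hypoxia response genes as lower. Their part in the differences of the 34 genes was not tested.

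Other genes of the cell cycle moved with the set between regions. Among 96 further mitosis genes, all above background, none passed the test between the labels in limma, and 8 had an unadjusted p under 0.05, all of them lower, beside the 20.8% over all targets. Among 39 replication and G1/S genes none passed, and 0 had an unadjusted p under 0.05. With the log2 background level as a covariate 25 of the 96 and 1 of the 39 passed as lower. Over all 19615 targets 2681 (13.7%) then passed as lower and 613 as higher. With housekeeping scaling 8 and 5 passed as higher, where 7.48% of all targets passed, 1410 higher and 58 lower. The calls of these lists thus took opposite directions by setting, as did those over all targets. The mean of the mitosis list had an r of 0.99 with the mean of the 34 genes, and that of the replication list 0.93, or 0.96 and 0.81 with background subtracted. Melk, a kinase of mitotic cells, Racgap1, the partner of Kif23 in centralspindlin, and Cks2, a Cdk1 subunit, had the highest r in the first list, with 0.97, 0.97 and 0.96. Rrm1, the large subunit of ribonucleotide reductase, Mcm6, of the replicative helicase, and Lig1, which joins Okazaki fragments, had the highest in the second, with 0.96, 0.94 and 0.93.

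Cell-cycle inhibitors and genes of resting cells did not follow the set as a list. The mean over the 14 of 17 above background had an r of 0.30 with the mean of the 34 genes on the common scale and of -0.68 with background subtracted, so its direction depended on the scale. Between the labels Btg2, an antiproliferative factor, was higher by 0.27 (limma adjusted p = 0.011) and Rb1, the retinoblastoma gene, lower, with a log2 difference of -0.22 (limma adjusted p = 0.0413). Btg2 read close to the background level, with a median of 252 in control and 284 in knockdown-labelled regions. It passed with each region left out. As deposited its difference was -0.23 (limma adjusted p = 0.00718), on a scale where 98.0% of all targets were lower. The call of Rb1 was lost in 14 of the 27 fits that left out a region, where its limma adjusted p ran from 0.0151 to 0.0832 in all, and at the same upper quartile, the same total, TMM, quantile and housekeeping scaling, with background subtracted alone and without control regions 6 and 7, with limma adjusted p from 0.0574 to 0.377. Both calls were lost with the log2 total as a covariate, at limma adjusted p = 0.0739 for Btg2 and 0.404 for Rb1. Rbl1, Trp53 and Cdkn2c had the highest r, with 0.84, 0.82 and 0.82. Cdkn1a, the p21 inhibitor, had -0.43, and -0.67 with background subtracted.

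Across all targets above background, the 15 outside the set with the highest r were Melk, H3c2, Racgap1, Trim28, Rrm1, Cks2, Tuba1b, Ipo9, Oat, Khsrp, Hmgb1, Smc1a, Uba1, Tubb5 and Pcbp1, with r values from 0.95 to 0.97 over 27 regions. They include the tubulins Tuba1b and Tubb5, the histone H3c2 and the cohesin subunit Smc1a. With background subtracted, 10 of the 15 were again among the first 15, led by Melk with 0.93. Of the 100 closest targets, 19 were from the mitosis list and 6 from the replication list, which hold 0.89% and 0.35% of the targets, and 21 and 3 with background subtracted. The 5 targets with the lowest r were Dusp5, Ccr7, Olfr1537, Mmp25 and Adgrg5, from -0.81 to -0.76, all close to background, and the odorant receptor Olfr1537 is among the genes that set the background level. With background subtracted the 5 lowest were others, Stk40, Arid5a, Kdm7a, Flt3l and Tlk2, from -0.90 to -0.83.

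Markers of other cell types and states are given beside these values. The mean of 8 T or NK cell markers above background, of 19 measured, had an r of -0.42 with the mean of the 34 genes, and the summed level of the 19 ran from 2810 to 4327 in control and from 3408 to 5757 in knockdown-labelled regions. The mean of 10 of 17 hepatocyte markers had -0.16, with sums from 2569 to 7863 and from 2605 to 15518. The mean of 17 of 18 hypoxia response genes had -0.30, with sums from 24612 to 87196 and from 20132 to 31073, and that of 2 of 9 neutrophil markers -0.74, with sums from 1456 to 1793 and from 1359 to 1893. With background subtracted these 4 r values were -0.34, -0.20, -0.53 and -0.77. The mean of 11 of 16 macrophage or Kupffer cell markers had an r of 0.45, and 0.36 with background subtracted. That of 14 housekeeping genes had 0.80, and 0.20 with background subtracted. This last value joins opposite signs, -0.42 in control and 0.82 in knockdown-labelled regions. The means of 11 of 14 fibroblast or stellate cell markers, 3 of 11 endothelial cell markers and the 1 of 8 B or plasma cell markers above background had 0.14, 0.12 and -0.09, and -0.05, 0.05 and 0.04 with background subtracted. The labels did not give the same r for each list. Over all measured markers, including those near background, the hepatocyte list had -0.71 in control and 0.08 in knockdown-labelled regions. In that order the fibroblast list had 0.38 and -0.26, the endothelial list 0.20 and -0.77 and the B or plasma cell list 0.04 and -0.77. Most markers of the last 2 lists were near background, a level with which the mean of the 34 genes itself had a negative r. Over the markers above background, with background subtracted, the hepatocyte list had -0.68 and 0.12 and the fibroblast list 0.24 and -0.38. The endothelial list then had 0.57 and -0.53 and the 1 B or plasma cell marker 0.43 and -0.35. These differences were not tested. The median r over pairs of the 34 genes was 0.75 with the T or NK cell list removed by regression, 0.86 with the hepatocyte list removed and 0.84 with the hypoxia list removed.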

How the data were processed

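The authors deposited normalized signal per target, 1 column per region, after sequencing of released tags and upper-quartile normalization within each label; aligner, counter and versions: not given in the sources used here. In each region at least 99.96% of values were whole multiples of a step (tolerance 0.01 of a whole number). The step is not stated to be a read, so no count model was run. Each region was scaled to a common median and tested as log2(value + 1) with limma 3.58.1 in R 4.3.3 (two-sided, with trend and robust, p-values adjusted by Benjamini-Hochberg over all targets, threshold 0.05). The fit was tested on simulated data, drawn independently for each region and target. Such draws leave out shared mice and correlation between targets, so they do not show the error rate in these regions. SDs and Pearson r used values with the label mean removed (25 degrees of freedom), in Python 3.11.15 with pandas 2.3.3 and NumPy 2.4.6. Genes were placed by the GENCODE M21 annotation of GRCm38. The 34 genes and the other lists were chosen with earlier results of these data known. Named genes were Mki67, Top2a, the extremes of spread, r and difference, any that passed the test, the 15 most and 5 least similar other targets, and in each other cell-cycle list those that passed and the 3 highest in r; a gene outside this rule was named after its values were seen. Alternatives covered scaling, background, pseudocount, covariates, list regressions and each region left out.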

Additional observations from a re-analysis of the deposited data

How the results depend on the processing

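The co-variation (median r over pairs, 0.84) was 0.671 as deposited, 0.670 at the same upper quartile, 0.659 at the same total and 0.576 with the log2 background regressed out. With background subtracted at the same upper quartile it was 0.652, 0.611 without the 2 farthest regions, 0.685 in control and 0.661 in knockdown-labelled regions alone, and 0.690 with chromosome means subtracted. The spread (median SD, 0.26) was 0.196 as deposited, 0.196 at the same upper quartile, 0.192 at the same total, 0.324 with background subtracted alone and 0.149 with the log2 background regressed out. With background subtracted at the same upper quartile it was 0.208 without the 2 farthest regions and 0.185 in control regions. Leaving out each region gave 0.814 to 0.852 for the first and 0.251 to 0.270 for the second.

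Of the 34 genes, 34 passed between labels as deposited, 1 (Bub3) with quantile normalization, 2 (Bub3 and Birc5) with housekeeping scaling, 1 with background subtracted at the same upper quartile, 4 with the log2 background covariate, and 0 with each region left out. The median difference was -0.53 as deposited, and from -0.05 to 0.02 with each region left out. Of all targets 763 passed, against 19236 as deposited, 433 at the same upper quartile, 403 at the same total, 1468 with housekeeping scaling, 373 with background subtracted, 27 with the log2 total as covariate, 4037 with background subtracted at the same upper quartile, 3294 with the log2 background covariate and 296 without control regions 6 and 7. Leaving out single regions gave 348 (knockdown-labelled 8) to 1442 (control 13). It was 359, 394, 437, 504 and 504 without control regions 3, 6, 8, 2 and 5. Of 151 genes in the other cell-cycle lists 2 passed, against 151, 1, 1, 14, 1, 0, 10, 30 and 1 in that order of settings (the 14 all higher, 29 of the 30 lower) and 1 with TMM scaling, and 1 to 5 with each region left out, 5 being without control region 13.

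The difference of Mki67, not passing, was 0.0156, 0.0321, 0.0079, 0.0193, 0.111 and 0.0215 at the same upper quartile, the same total, TMM, quantile, housekeeping and background subtracted with the same upper quartile, but -0.028 with background subtracted alone, and from -0.0694 to 0.0305 with each region left out. Cenpe was 0.0216 with housekeeping scaling, and Ccnb2 and Bub3 were -0.38 and -0.42 as deposited. The cause of these changes was not tested. The settings with background subtracted at the same upper quartile, with the log2 background level, with chromosome means and without named pairs of regions were chosen after seeing the data.

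Limits: edgeR on whole steps was not run, since the values could not be shown to be reads. No paired analysis was possible because the labels give no number shared between control and knockdown-labelled regions. Probe readings near background, as for Ttk and Cenpf, carry little precision once background is subtracted. Regions share mice, so the number of independent units is below 27.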
